A study of Mus musculus with 11 samples.

Results

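A set of 9 B cell surface receptor genes was followed in leukemic and normal B cell progenitors of the mouse. They are Cd22, Cd72, Cd24a, Ms4a1, Cd40, Cr2, Cd38, Cd2 and Cd53, and all 9 of 9 were found by symbol among the 24319 genes of each deposited table. The rule takes them by name, as surface proteins that mark stages of B cell development, and the set was drawn up with earlier results of these data known. The B-ALL group is lymph node leukemia cells (B cell acute lymphoblastic leukemia) that arose in mice of genotype Ebf1+/- Pax5+/-, and 3 of these, numbered 686, 713 and 760, gave 2 libraries each. The dHet proB group is 3 libraries of pre-leukemic Ebf1+/- Pax5+/- Rag2-/- proB cells, grown for a short time from c-Kit+ fetal liver cells on OP9 feeder cells in medium holding SCF, Flt3 ligand and IL-7. The wt proB group is 2 libraries of cells sorted as fraction BC from bone marrow of Ebf1+/+ Pax5+/+ Rag2+/+ mice. All mice were C57BL/6J, and no age is given in the labels. Rag2 genotype, tissue, culture and leukemia change together between the groups and cannot be told apart, and in bulk RNA fewer cells of a type and less RNA per cell cannot be told apart either.

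EBF1 and PAX5 are transcription factors that commit progenitors to the B cell lineage and hold them there, and many B cell surface receptor genes are among their described targets. As B cells mature they gain receptors that tune the B cell receptor. CD22 and CD72 carry inhibitory motifs that dampen its signal, whereas CR2 strengthens it. CD20, the product of Ms4a1, and CD40 appear on later stages, CD2 appears in mice around the pre-B stage, and CD24, CD38 and CD53 are carried by many blood cells in amounts that change with the stage.

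Values are FPKM, fragments per kilobase of transcript scaled to the size of the library, so that levels of different genes can be compared per length. Means are given ± SD over n = 3 mice for B-ALL (the libraries of a mouse averaged), n = 3 libraries for dHet proB and n = 2 for wt proB. Differences are log2 fold changes of FPKM + 1 with their standard error (SE) and the limma p-value adjusted over all 11110 genes tested. FPKM sums per library ran from 505261 to 638953. Judged by the step between low values, sequencing depth as scaled by the authors differed by at most 1.56-fold between library 1 of mouse 686 and library 1 of dHet proB, and 1 fragment was worth about 0.028 to 0.044 FPKM for a transcript of 1 kb. All 8 B-lineage markers checked, among them Cd79a, had FPKM of 1 or more in every library, with sums of 6192 to 8550 in B-ALL, 8401 to 10871 in dHet proB and 7016 to 7403 in wt proB.

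Ebf1 had 151 to 212 FPKM in the B-ALL libraries, 283 to 369 in dHet proB, and in wt proB 297 and 542. Pax5 had 35.3 to 52.8 FPKM in B-ALL, 70.9 to 99.0 in dHet proB, and in wt proB 101 and 57.2. Every B-ALL library thus lay below every library of both other groups for both genes. Of all genes tested, 15.5% lay apart and lower in this way against dHet proB and 24.7% against wt proB. By limma Ebf1 was lower in B-ALL than in dHet proB (log2 -0.83, adjusted p = 0.0374) and wt proB (-1.19, adjusted p = 0.0203). Pax5 was lower than in dHet proB (-0.95, adjusted p = 0.0214) and did not pass against wt proB (-0.78, adjusted p = 0.0679).

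Promoter sequence was available for 5 of the 9 genes, namely Cd22, Cd38, Cd53, Cd72 and Cr2. The 250 bases before the transcription start were searched for CCCNNGGG, the palindromic core of the EBF1 motif, which reads the same on both strands. The letters were found in Cd22 and Cd53, and in 11.8% of all 32851 promoter windows. The match in Cd22 ends 41 bases before the start, and that in Cd53 ends 206 bases before it. The promoters with a match and that of Cd72, whose fall in B-ALL against wt proB was the largest of the 8 members tested on the log2(FPKM + 1) scale, are shown, with the matched letters in capitals. They are RefSeq sequences of build GRCm38.p6, 5′ to 3′ on the minus strand, whereas the deposited values rest on mm9.
Cd22, chr7:30879029-30879278: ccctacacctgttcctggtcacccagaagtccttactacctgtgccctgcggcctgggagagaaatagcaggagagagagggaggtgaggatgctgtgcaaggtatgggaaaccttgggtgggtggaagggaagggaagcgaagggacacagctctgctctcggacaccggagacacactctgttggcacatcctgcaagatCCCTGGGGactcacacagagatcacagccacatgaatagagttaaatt
Cd53, chr3:106790150-106790399: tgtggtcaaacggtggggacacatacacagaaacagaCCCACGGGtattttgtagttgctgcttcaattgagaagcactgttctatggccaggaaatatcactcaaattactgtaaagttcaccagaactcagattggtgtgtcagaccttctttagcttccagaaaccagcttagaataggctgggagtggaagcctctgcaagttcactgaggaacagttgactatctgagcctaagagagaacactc
Cd72, chr4:43454627-43454876: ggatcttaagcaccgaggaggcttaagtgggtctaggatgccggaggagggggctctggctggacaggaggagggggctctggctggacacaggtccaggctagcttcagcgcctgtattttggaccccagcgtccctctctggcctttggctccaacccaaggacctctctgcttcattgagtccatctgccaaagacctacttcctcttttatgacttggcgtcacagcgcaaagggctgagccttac
A match describes these letters alone, and binding of EBF1 was not measured.

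The inhibitory lectin receptors Cd72 and Cd22 were read first. Cd72 encodes a C-type lectin-like receptor that recruits the phosphatase SHP-1. It had 12.3 and 12.0 FPKM in mouse 686, 11.5 and 13.1 in mouse 713, while mouse 760 had 63.4 and 65.3. The dHet proB libraries had 323, 291 and 193 FPKM, and the wt proB libraries 630 and 623. No library of one group overlapped those of another, with B-ALL lowest, dHet proB between and wt proB highest. Cd72 fell to 29.6 ± 30.1 FPKM in B-ALL, against 269 ± 67.8 in dHet proB (log2 -3.55, SE 0.58, adjusted p = 0.00581). Against wt proB, with 626 ± 5.18 FPKM, the difference in B-ALL was -4.80 (SE 0.65, adjusted p = 0.00275). The call against wt proB was lost without wt proB library 2 (-4.81, adjusted p = 0.0513). Between dHet proB and wt proB the difference was -1.25 (95% interval -2.74 to 0.24, adjusted p = 0.309), and it passed without mouse 760 (adjusted p = 0.0169). An exon of Tesk1, a kinase gene, overlaps Cd72 on the opposite strand, and the labels do not say whether counting used strand, so reads of the overlap cannot be told apart. Tesk1 had 0.377 to 1.42 FPKM in B-ALL, 1.99 to 2.87 in dHet proB and 4.94 or more in both wt proB libraries, so it had the same order of groups at a far lower level.

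Cd22 encodes a sialic acid-binding lectin of the Siglec family that also recruits SHP-1. Its FPKM was 18.4 and 16.2 in mouse 686, 41.3 and 42.8 in mouse 713, while mouse 760 had 18.4 and 24.0. The dHet proB libraries had 15.5, 7.13 and 11.1 FPKM, and the wt proB libraries 33.4 and 20.9. Each B-ALL library exceeded every dHet proB library, while B-ALL and wt proB overlapped. Cd22 did not pass in B-ALL against dHet proB (26.8 ± 13.3 against 11.2 ± 4.18 FPKM, log2 1.14, SE 0.38, adjusted p = 0.0622), although it did with the mouse as a random effect (adjusted p = 0.0472). Against wt proB, with 27.2 ± 8.88 FPKM, the difference in B-ALL was -0.09 (95% interval -1.07 to 0.90), and its sign turned without mouse 686 (0.16), without mouse 760 (0.03) and without wt proB library 1 (0.24). The dHet proB value was lower than that of wt proB by -1.22 on the log2 scale and did not pass (adjusted p = 0.132).

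**Figure D1:**
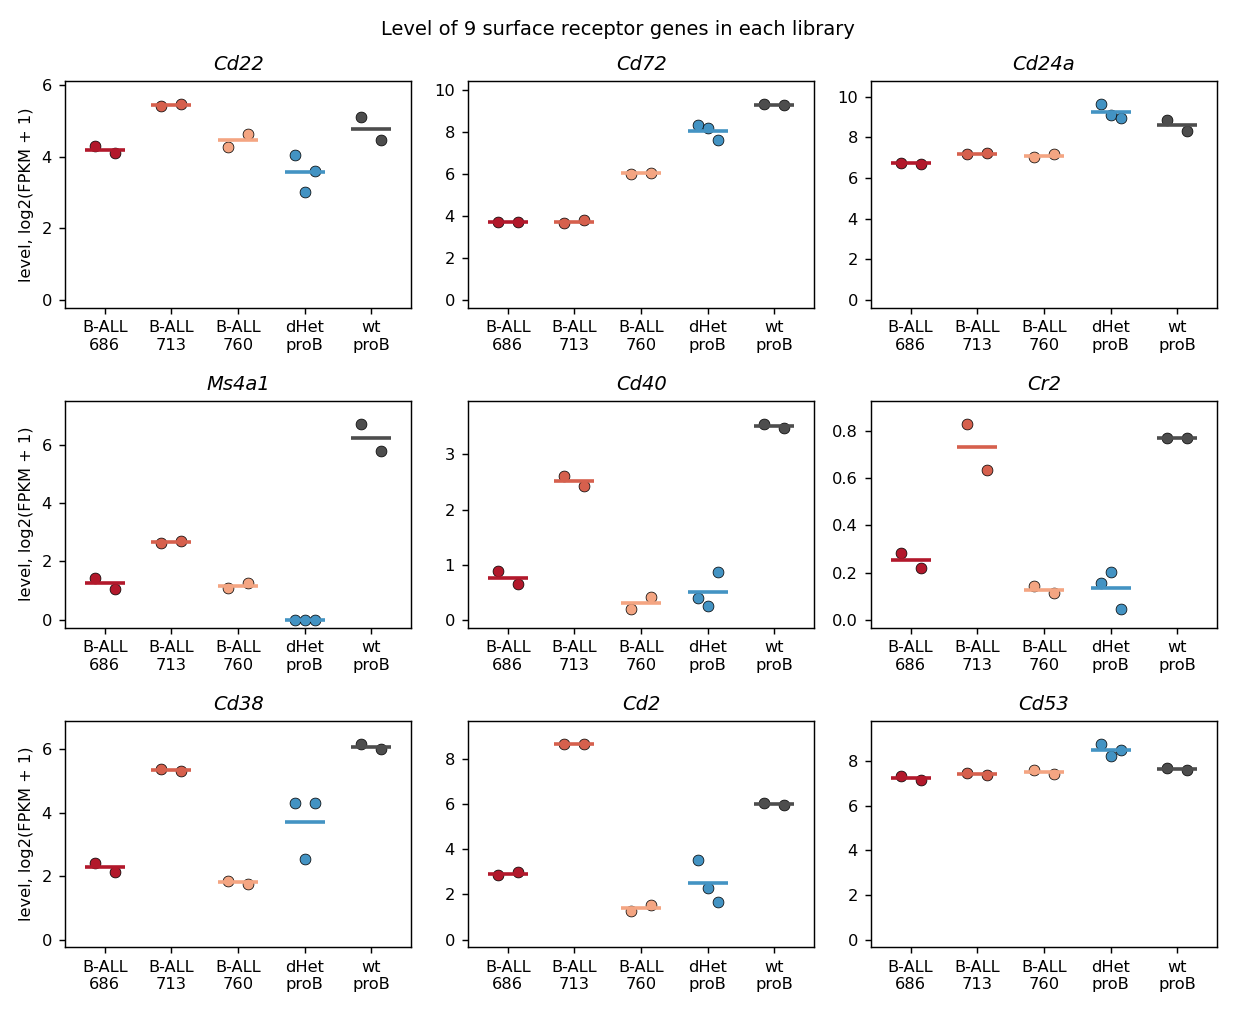
Level of each of the 9 genes as log2(FPKM + 1) on the vertical axis, with its own scale per panel. Each point is a library, the horizontal bars are means, and columns are the 3 B-ALL mice, dHet proB and wt proB. Cd72 lies between 11.5 and 65.3 FPKM in B-ALL and at 193 FPKM or more in all other libraries, and Ms4a1 is listed at 0 in the 3 dHet proB libraries.

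Cd24a and Cd53 were the members with the most even levels among the leukemias. Cd24a encodes heat-stable antigen, a glycoprotein anchored in the membrane by a lipid and used to separate early B cell fractions. It had 106 and 102 FPKM in mouse 686, 142 and 148 in mouse 713, while mouse 760 had 130 and 142. The dHet proB libraries had 784, 556 and 499 FPKM and the wt proB libraries 465 and 321. All 6 B-ALL libraries were below all 5 proB libraries, and each dHet proB library was above both wt proB libraries. Cd24a fell to 128 ± 21.5 FPKM in B-ALL, against 613 ± 151 in dHet proB (log2 -2.23, SE 0.24, adjusted p = 0.00135). It also fell relative to wt proB, which had 393 ± 101 FPKM (-1.60, SE 0.26, adjusted p = 0.00628), with the call lost without wt proB library 1 (-1.33, adjusted p = 0.0732). The difference of 0.64 between dHet proB and wt proB did not pass (adjusted p = 0.202). Of the 50-base words in the transcripts of Cd24a, 2.75% also occur in the predicted gene Gm6212, which the deposited tables do not list, and how shared reads were counted is not stated, so its level is uncertain.

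Cd53 encodes a tetraspanin, a membrane organiser carried by most white blood cells. Its FPKM was 157 and 142 in mouse 686, 174 and 163 in mouse 713, while mouse 760 had 192 and 168. The dHet proB libraries had 431, 297 and 358 FPKM, against 203 and 195 in wt proB. The dHet proB libraries were thus the highest, and B-ALL lay just below wt proB without overlap. Cd53 fell to 166 ± 15.4 FPKM in B-ALL, against 362 ± 67.3 in dHet proB (log2 -1.11, SE 0.17, adjusted p = 0.00471). In dHet proB it rose above the 199 ± 5.84 FPKM of wt proB (0.84, SE 0.19, adjusted p = 0.0306). That rise lost its call in 6 of 25 settings, among them without dHet proB library 1 (0.71, adjusted p = 0.0815), dHet proB library 3 (adjusted p = 0.0642), either wt proB library (adjusted p = 0.214 without library 1 and 0.245 without library 2). B-ALL and wt proB differed by -0.26 (95% interval -0.70 to 0.17).

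Among receptors of later B cells, Ms4a1, Cd40 and Cr2 had their lowest group means in dHet proB and their highest in wt proB, with B-ALL and dHet proB overlapping for Cd40 and Cr2. Ms4a1 encodes CD20, a four-pass membrane protein of pre-B and mature B cells. It had 1.71 and 1.08 FPKM in mouse 686, 5.21 and 5.47 in mouse 713, while mouse 760 had 1.13 and 1.39. All 3 dHet proB libraries list it at 0, and the wt proB libraries had 103 and 54.5 FPKM. The groups did not overlap. Ms4a1 fell in B-ALL, with 2.67 ± 2.32 FPKM there and 78.8 ± 34.4 in wt proB (log2 -4.55, SE 0.46, adjusted p = 0.000824), and it kept this call in all 25 alternative settings. In dHet proB it was lower than in wt proB in 25 of 25 settings too (adjusted p = 0.000241). In B-ALL it was higher than in dHet proB (adjusted p = 0.0227), a call lost without dHet proB library 1 (adjusted p = 0.0712), without dHet proB library 3 (adjusted p = 0.0504) and with no filter on low values (adjusted p = 0.0602). No fold is given against a group listed at 0.

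Cd40 encodes a receptor of the tumour necrosis factor receptor family through which T cells help B cells. Its FPKM was 0.840 and 0.572 in mouse 686, 5.11 and 4.37 in mouse 713, while mouse 760 had 0.152 and 0.337. It had 0.320, 0.187 and 0.822 FPKM in dHet proB, against 10.7 and 10.1 in wt proB. Only the libraries of wt proB and of mouse 713 reached FPKM 1, and all B-ALL and dHet proB libraries were below wt proB. Cd40 fell in B-ALL, with 1.90 ± 2.47 FPKM there and 10.4 ± 0.412 in wt proB (log2 -2.31, SE 0.58, adjusted p = 0.0297). This call was lost in 7 of 25 settings, such as without mouse 686 (adjusted p = 0.0876), mouse 760 (adjusted p = 0.0561), either wt proB library (adjusted p = 0.163 without library 1 and 0.182 without library 2). In dHet proB, with 0.443 ± 0.335 FPKM, it fell by 3.01 on the log2 scale relative to wt proB (adjusted p = 0.0160), and lost the call without dHet proB library 1 (adjusted p = 0.0562), either wt proB library (adjusted p = 0.168 without library 1 and 0.158 without library 2). B-ALL and dHet proB overlapped (0.69, 95% interval -0.49 to 1.88).

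Cr2 encodes the complement receptors CD21 and CD35, which in mice are made from 1 gene and are typical of mature B cells. Its FPKM was 0.217 and 0.166 in mouse 686, 0.777 and 0.554 in mouse 713, while mouse 760 had 0.104 and 0.0818. It had 0.114, 0.151 and 0.0329 FPKM in dHet proB, against 0.707 and 0.708 in wt proB. No library reached FPKM 1, so Cr2 was below the filter and was not tested. At this level both wt proB libraries and those of mouse 713 were the highest, and the other 7 libraries lay at 0.217 FPKM or less.

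Cd38 and Cd2 had the widest ranges among the leukemias on the log2(FPKM + 1) scale. Cd38 encodes an enzyme at the cell surface that makes cyclic ADP-ribose. Its FPKM was 4.35 and 3.40 in mouse 686, 40.3 and 39.1 in mouse 713, while mouse 760 had 2.62 and 2.36. It had 18.9, 4.84 and 18.7 FPKM in dHet proB, against 70.8 and 63.4 in wt proB. All B-ALL and dHet proB libraries were below wt proB, and the B-ALL mice lay on both sides of dHet proB. With 15.4 ± 21.1 FPKM in B-ALL and 67.1 ± 5.19 in wt proB, the difference did not pass (log2 -2.95, SE 1.00, adjusted p = 0.0774), and it did without mouse 713 (-4.05, adjusted p = 0.00377). The dHet proB level of 14.1 ± 8.04 FPKM did not pass against wt proB either (-2.37, adjusted p = 0.212), and passed when the fit left out mouse 713 (adjusted p = 0.0280). B-ALL and dHet proB differed by -0.58 (95% interval -2.65 to 1.50), a sign that turned without mouse 760 (0.09).

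Cd2 encodes an adhesion receptor that binds CD48 and is carried by T cells and NK cells as well as by B-lineage cells. It had 6.29 and 6.88 FPKM in mouse 686, 404 and 401 in mouse 713, while mouse 760 had 1.43 and 1.86. The dHet proB libraries had 10.6, 3.90 and 2.21 FPKM, against 65.5 and 61.1 in wt proB. Mouse 713 was above all other libraries, and mice 686 and 760 were below wt proB. Its mean of 137 ± 230 FPKM in B-ALL therefore describes none of the mice, and neither the difference from dHet proB (log2 1.82, SE 1.62, adjusted p = 0.440) nor that from wt proB (-1.68, SE 1.81, adjusted p = 0.545) passed. Without mouse 713 Cd2 was lower in B-ALL than in wt proB (-3.85, adjusted p = 0.00786), and the sign against dHet proB turned (-0.35, adjusted p = 0.703). In dHet proB, with 5.59 ± 4.46 against 63.3 ± 3.12 FPKM in wt proB, the difference of -3.50 did not pass (adjusted p = 0.309) and passed without mouse 713 in the fit (adjusted p = 0.0101). The 8 T cell markers summed to 20.0 to 20.6 FPKM in mouse 713 and to 19.5 to 20.8 in mouse 686, where Cd2 was at or below 6.88. The 6 NK cell markers summed to 53.4 to 56.3 FPKM in mouse 713, 48.8 to 50.0 in mouse 686 and 271 to 333 in mouse 760. Of these, Klrb1c (10.5 and 11.3 FPKM), Klrd1 (14.3 and 14.0) and Gzma (6.56 and 6.32) were highest in mouse 713 among the leukemias, and Nkg7 (328 and 265) in mouse 760. The part of T and NK cells in the level of Cd2 was not tested.

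**Figure D2:**
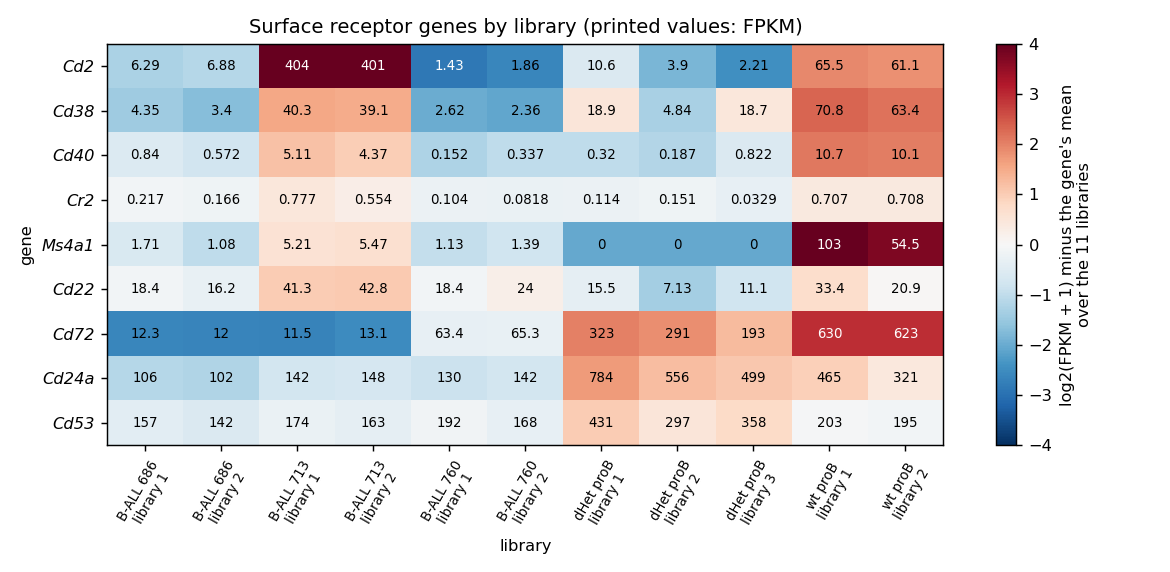
Surface receptor genes (rows) in the 11 libraries (columns, B-ALL to the left of dHet proB and wt proB). Colour gives log2(FPKM + 1) minus the mean of the gene over all libraries, and the printed number is the FPKM. Cd2 and Cd38 stand at 401 to 404 and 39.1 to 40.3 in mouse 713, and Cd72 at 63.4 and 65.3 in mouse 760.

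The levels of the 9 genes also had a different order in each group. By the mean over mice, Cd53 was the highest in B-ALL at 166 ± 15.4 FPKM, and Cd24a followed at 128 ± 21.5, with mouse means of 104 to 145 that all lay below the 150 to 180 of Cd53. The mean of Cd2 (137 ± 230) fell between them, within its own spread of both, and in mouse 713 Cd2 was the highest of the 9 at 403 FPKM, against 169 for Cd53. Cd72, Cd22 and Cd38 came next at 29.6, 26.8 and 15.4 FPKM. Cd22 was above Cd38 in each mouse (17.3 against 3.87 in 686, 42.0 against 39.7 in 713 and 21.2 against 2.49 in 760). Cd72 was below Cd22 in mice 686 and 713 and above it in mouse 760. Ms4a1, Cd40 and Cr2 had the lowest means at 2.67, 1.90 and 0.317. In dHet proB the order was led by Cd24a at 613 ± 151 FPKM, followed by Cd53 (362 ± 67.3) and Cd72 (269 ± 67.8), and the other 6 genes were at 14.1 FPKM or less. The ranges of Cd53 and Cd72 overlapped, but Cd53 was the higher in every dHet proB library (431 against 323, 297 against 291 and 358 against 193). In wt proB Cd72 was the highest at 626 ± 5.18 FPKM, ahead of Cd24a (393 ± 101) and Cd53 (199 ± 5.84). Ms4a1, Cd38 and Cd2 formed a middle group in wt proB at 78.8 ± 34.4, 67.1 ± 5.19 and 63.3 ± 3.12 FPKM. Ms4a1 was the highest of these in wt proB library 1 and the lowest in library 2, while Cd38 was above Cd2 in both.

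Leukemic cells were set against the pre-leukemic dHet proB cells, which also differ from them in Rag2 genotype, tissue and culture. Cd72, Cd24a and Cd53 fell, Ms4a1 rose, and Cd22, Cd40, Cd38 and Cd2 did not pass. These are 4 of 8 members tested, while 25.5% of all genes tested passed in this comparison. Every library of one group was apart from every library of the other for 5 of the 8 members, Cd22 being the fifth, and for 34.9% of all genes tested (19.5% higher, 15.5% lower). The T cell, NK cell and red cell markers had higher sums in B-ALL. The T cell markers summed to 7.87 to 20.8 FPKM in B-ALL and 1.30 to 4.32 in dHet proB, where Cd3e, Cd4, Cd8a and Cd8b1 were listed at 0, and 6 of 7 tested rose. Of the risen, Cd3e, Cd3d and Cd3g reached FPKM 1 only in B-ALL, so the filter set their direction. The NK cell markers summed to 48.8 to 333 FPKM in B-ALL and 8.03 to 35.2 in dHet proB, where Ncr1 and Gzma were listed at 0, and 3 of 6 rose. Among them Klrd1 was lower in B-ALL (7.11 ± 6.38 against 17.3 ± 10.7 FPKM) and did not pass (limma adjusted p = 0.243). The red cell markers summed to 7.78 to 501 FPKM in B-ALL and 0.713 to 0.984 in dHet proB, where Hbb-b1 and Hba-a1 were listed at 0, and 2 of 4 tested rose. Other lists did not all go this way. Plasmacytoid dendritic cell markers summed to 85.7 to 119 FPKM in B-ALL and 79.6 to 108 in dHet proB, and 1 of 7 rose (Bst2) and 1 fell (Tcf4). Most of these sums was Bst2 (55.8 to 101 FPKM in B-ALL, 31.5 to 38.1 in dHet proB) and Tcf4 (15.5 to 24.4 and 41.8 to 45.9). Neutrophil and monocyte markers summed to 28.6 to 262 and 13.8 to 51.7 FPKM, mostly Lyz2, and 1 of 10 rose. Of 4 plasma cell markers tested, 1 rose and 1 fell. Stroma and endothelium markers summed to 20.1 to 46.8 and 42.9 to 81.6 FPKM, and 0 of 2 tested passed. The part of other cells in the changes of the receptor genes was not tested.

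Against wt proB, Cd72, Ms4a1, Cd24a and Cd40 fell in B-ALL, and none of the members rose. That is 4 of 8 members tested, and 18.2% of all genes passed in this comparison, 8.15% higher and 10.0% lower. All B-ALL libraries were below both wt proB libraries for 6 of the 8 members (these 4, Cd38 and Cd53), and 48.2% of all genes tested were apart, 23.5% higher and 24.7% lower. Without mouse 713, 6 members passed, all lower, and without wt proB library 1 or library 2 only 2 did. Markers listed for other cell types were read in this comparison too, and no cells are named from them. The 7 markers of plasmacytoid dendritic cells summed to 85.7 to 119 FPKM in B-ALL, most of it Bst2 and Tcf4, and 470 to 683 in wt proB. All 7 were lower in B-ALL, but Klk1 and Pacsin1 reached FPKM 1 only in wt proB, so the filter set their direction. The defining marker Siglech had 0.0150 to 1.65 FPKM in B-ALL and 132 and 77.3 in wt proB. The 10 neutrophil and monocyte markers in the tables summed to 28.6 to 262 FPKM in B-ALL and 539 to 561 in wt proB, and 7 were lower in B-ALL. Among these 7, Elane and Mpo reached FPKM 1 only in wt proB, so the filter set their direction too. Most of the neutrophil and monocyte sums in B-ALL was Lyz2 (26.1 to 204 FPKM), which did not pass (limma adjusted p = 0.573). Other lists did not all fall. Of 7 T cell markers tested 3 rose, which reached FPKM 1 only in B-ALL (Cd3e, Cd3d and Cd3g), and 1 fell. Of 6 NK cell markers 1 fell, of 4 plasma cell markers 2 fell, and of 2 stroma and endothelium markers 1 fell. These NK and endothelium falls, Ncr1 and Cdh5, reached FPKM 1 only in wt proB. Of 4 red cell markers 0 passed. The part of any of these cells in the falls of the receptor genes was not tested.

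In dHet proB against wt proB, Ms4a1 and Cd40 fell and Cd53 rose, which is 3 of 8 members tested beside 8.68% of all genes (2.18% higher, 6.50% lower). All 8 members were apart between these groups, 6 lower and 2 higher, as were 43.0% of all genes tested (18.9% higher, 24.1% lower). Without wt proB library 1, wt proB library 2 or dHet proB library 1 only Ms4a1 passed, and 5 members passed when mouse 713 was left out of the shared fit. The plasmacytoid dendritic cell markers summed to 79.6 to 108 FPKM in dHet proB, most of it Bst2 and Tcf4. Siglech and Klk1 were listed at 0 there, and 6 of 7 were lower than in wt proB. The neutrophil and monocyte markers summed to 13.8 to 51.7 FPKM in dHet proB, most of it Lyz2 (11.9 to 39.4 FPKM). Elane and Mpo were listed at 0 there, and 7 of 10 were lower than in wt proB. Klk1, Pacsin1, Elane and Mpo, counted in these falls, reached FPKM 1 only in wt proB, so the filter set their direction. In dHet proB 3 of 7 T cell markers tested, 2 of 6 NK cell markers, 1 of 4 plasma cell markers and 1 of 2 stroma and endothelium markers were lower too. Cd8a, Ncr1 and Cdh5 among them reached FPKM 1 only in wt proB. No marker of these lists was higher, and 0 of 4 red cell markers passed. The part of any of these cells in the differences of the receptor genes was not tested.

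**Figure D3:**
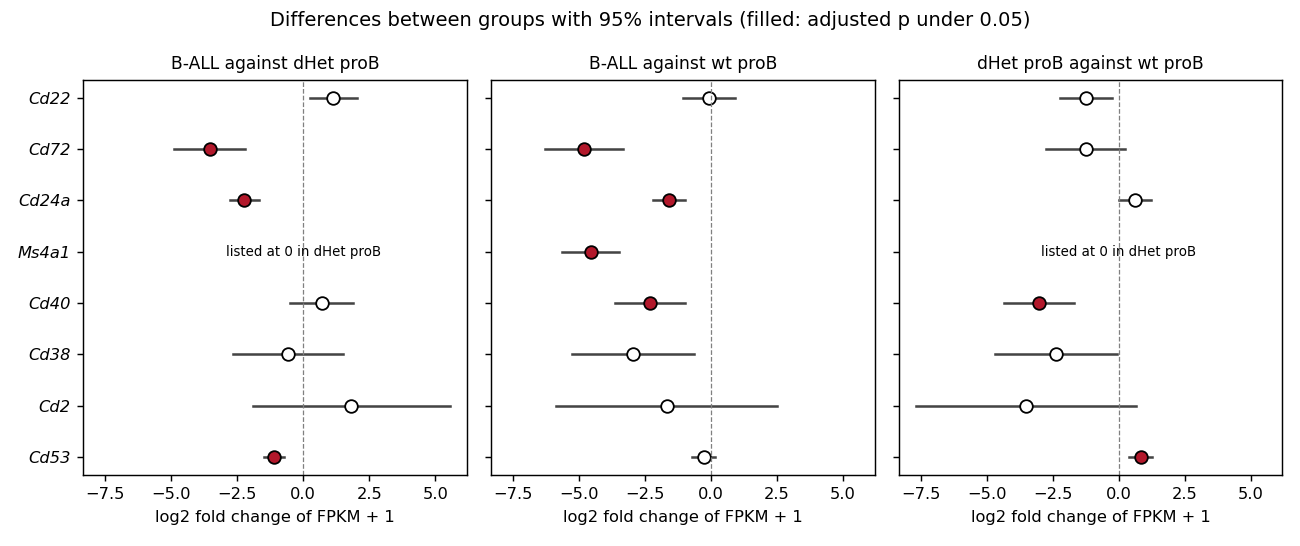
Log2 fold changes of FPKM + 1 (horizontal axis) with 95% intervals for 8 members in the 3 comparisons, with filled points for adjusted p under 0.05. Ms4a1 is listed at 0 in dHet proB and has no point there, and Cr2 was below the filter. The widest intervals are those of Cd2, from -1.91 to 5.55 in B-ALL against dHet proB, -5.85 to 2.49 in B-ALL against wt proB and -7.67 to 0.67 in dHet proB against wt proB.

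The 3 leukemias were then compared with each other with an F test in limma over the 11 libraries, which sets the mice against the spread between libraries of a mouse or group. The members that passed were Cd2, Cd72, Cd40, Cd38, Ms4a1 and Cd22, and Cd24a and Cd53 did not pass. That is 6 of 8 tested, while 22.3% of 11293 genes passed. The folds below are ratios of mouse mean FPKM, whereas the test used log2(FPKM + 1) and any difference among the mice. On that scale the mice spanned 7.26 for Cd2 and 2.21 for Cd40. Mouse 713 was the highest for Cd2, at 246-fold the level of the lowest mouse (adjusted p = 1.40e-05), for Cd38, 16.0-fold (adjusted p = 0.00146), for Cd40, 19.4-fold (adjusted p = 0.000138), and for Ms4a1, 4.23-fold (adjusted p = 0.00458). It was also the highest for Cd22, at 2.43-fold the level of the lowest mouse (adjusted p = 0.0442), a call lost in 9 of 16 settings and in each that left out a B-ALL library (adjusted p = 0.0732 to 0.225). Ms4a1 lost its call without library 2 of mouse 713 (adjusted p = 0.0515). Mouse 760 stood apart for Cd72, at 5.30-fold the level of the lowest mouse (adjusted p = 7.85e-05). The highest and lowest mouse differed by 1.39-fold for Cd24a (adjusted p = 0.312) and by 1.20-fold for Cd53 (adjusted p = 0.545). Within a mouse, the libraries differed by at most 1.31-fold for Cd22, Cd72, Cd24a, Cd38, Cd2 and Cd53, and by up to 1.59-fold for Cr2 and Ms4a1 and 2.21-fold for Cd40. The widest of these was Cd40 in mouse 760, the lowest mouse, so the fold of Cd40 between mice is imprecise. Markers of other cells also differed between mice. Red cell markers had sums of at most 9.30 FPKM in mouse 686, at least 398 in mouse 713 and 104 to 127 in mouse 760. Neutrophil and monocyte markers had sums of 260 to 262 FPKM in mouse 686, 118 to 130 in mouse 713 and 28.6 to 28.7 in mouse 760. The sum of NK cell markers was highest in mouse 760, where Nkg7 had 328 and 265 FPKM. Klrb1c, Klrd1 and Gzma were highest in mouse 713, as given above. T cell markers had their lowest sums in mouse 760, at 7.87 to 8.75 FPKM. The part of these cells in the differences was not tested.

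The genes most like each member over the 11 libraries were sought by Pearson r of log2(FPKM + 1) among 7017 genes (7018 for Cr2). This is a description in which libraries of a mouse are not independent. Cd72 was most like Capsl (r = 0.992) and Adssl1 (0.981), and Cd24a most like Pcyt1a (0.988) and Abi1 (0.987). Ms4a1 was followed by Lair1 (0.991), an inhibitory receptor gene, and Cldn10 (0.981). For Cd2 they were Ublcp1 (0.982) and Lpxn (0.976), and Lpxn had 64.7 and 64.4 FPKM in mouse 713 and 2.06 to 17.8 in all other libraries. Cd53 was most like Coro1b (0.982) and Vps26a (0.980), Cd22 like Stk17b (0.980) and Scpep1 (0.949), and Cd40 like Pltp (0.980) and Rnase6 (0.977). Cd38 was most like Gng2 (0.974) and Lrch1 (0.970). Cr2 followed the integrin gene Itgb7 (0.967).

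Other surface markers of B cell stages were read beside the 9 genes, and each count stands beside the share of all genes passing in its comparison (25.5% in B-ALL against dHet proB, 18.2% in B-ALL against wt proB and 8.68% in dHet proB against wt proB). Of 14 early stage markers tested, none passed in B-ALL against wt proB by limma, and 0 had an unadjusted p under 0.05 (1 higher and 2 lower without mouse 713), at a median log2 change of 0.14 (-0.06 after rescaling to TPM and -0.08 after quantile normalization) against -0.02 over all genes. Against dHet proB, the cytokine receptor gene Flt3 rose in B-ALL (44.7 ± 30.8 against 1.81 ± 1.41 FPKM, log2 3.80, adjusted p = 0.0102), and 2 fell. These were Kit, the receptor of SCF (16.9 ± 9.45 against 81.9 ± 31.2 FPKM, -2.32, adjusted p = 0.0129), and the aminopeptidase gene Enpep (6.33 ± 8.94 against 42.6 ± 32.2 FPKM, -3.18, adjusted p = 0.0381), whose call was lost in 10 of 25 settings. Kit lost its call in 1 setting, and without mouse 713, 4 of the list fell. The list's median was -0.23 against 0.04 over all genes. In dHet proB only Kit rose relative to wt proB (81.9 ± 31.2 against 7.84 ± 0.815 FPKM, 3.15, adjusted p = 0.00942), and the other 13 did not pass. This rise was lost without either wt proB library (adjusted p up to 0.135). The dHet proB cells were grown with the ligands of both receptors.

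Of 19 later stage markers tested, 6 fell and 0 rose in B-ALL against wt proB, at a median of -1.04 (-0.02 over all genes). The largest falls were in Fcmr, a receptor for IgM (1.51 ± 1.39 against 73.0 ± 41.2 FPKM, -4.91, adjusted p = 0.000669), and Cd83, an activation marker (1.27 ± 0.491 against 32.3 ± 3.11 FPKM, -3.90, adjusted p = 8.59e-05). Without mouse 713, 11 fell, and without wt proB library 1 or library 2, 2 and 3 did. In dHet proB 5 of the 19 fell and 0 rose relative to wt proB, at a median of -1.24 (-0.04 over all genes). Fcmr had 0.415 ± 0.136 FPKM there (-5.59, adjusted p = 0.000403), and Cd83 was listed at 0 in all 3 libraries (adjusted p = 2.91e-05). Without wt proB library 1 or library 2 the falls numbered 2, and without mouse 713 in the fit 9. Against dHet proB 4 rose in B-ALL and 2 fell, at a median of 0.37 (0.04 over all genes). The rises included the costimulatory gene Cd86 (17.4 ± 20.9 against 0.0456 ± 0.0428 FPKM, 3.35, adjusted p = 0.0222) and Tnfrsf13c, which encodes the BAFF receptor (113 ± 78.7 against 16.0 ± 0.704 FPKM, 2.53, adjusted p = 0.00585). The falls were in Cd55 (-1.26) and Cd1d1 (-1.23), and without mouse 713, 5 fell. Of 25 settings, Cd86 kept its call in 21, Cd55 in 20 and Cd1d1 in 24, while Fcmr, Cd83 and Tnfrsf13c kept theirs in all.

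**Figure D4:**
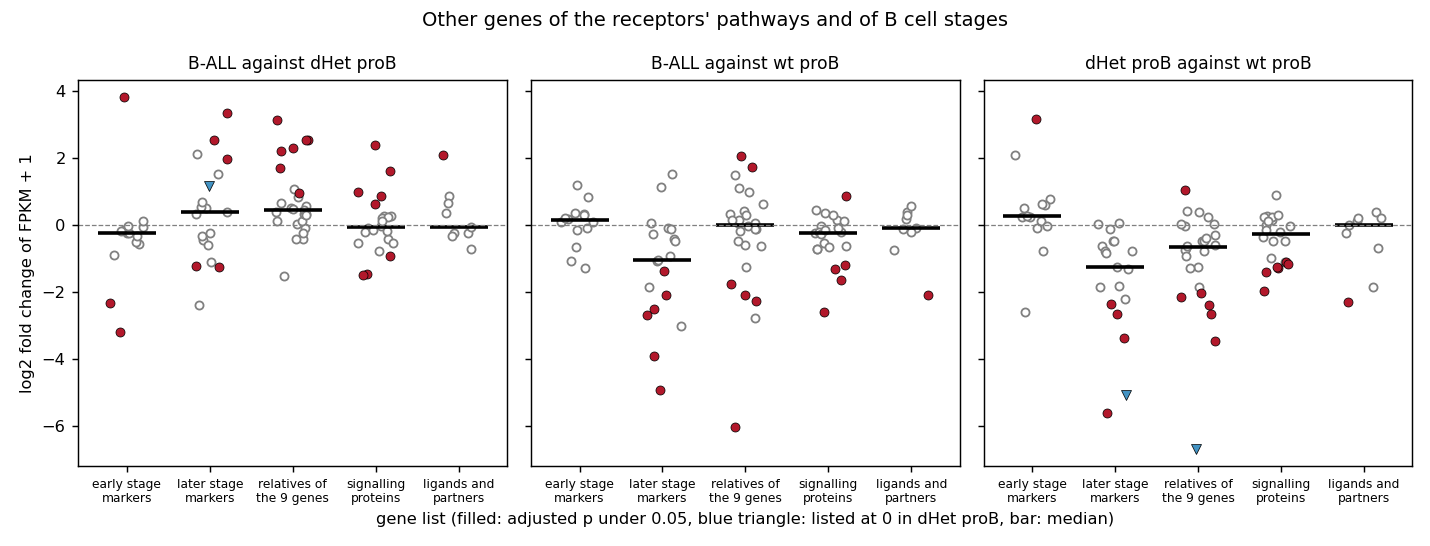
Log2 fold changes of FPKM + 1 for other genes of B cell stages and of the receptors' pathways, 1 point per gene, in the 3 comparisons. Filled points have adjusted p under 0.05, black bars are list medians, and blue triangles mark genes past the test that are listed at 0 in dHet proB. The median of later stage markers is -1.04 in B-ALL and -1.24 in dHet proB, each against wt proB.

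Relatives of the 9 genes were counted by family. Of all genes tested, 25.5% passed in B-ALL against dHet proB, 18.2% in B-ALL against wt proB and 8.68% in dHet proB against wt proB. The counts of relatives in both B-ALL comparisons were near these shares. Of 26 tested, 7 rose and 0 fell in B-ALL against dHet proB (median 0.46, 0.04 over all genes), with Cd52, a small lipid-anchored glycoprotein, at 686 ± 302 against 73.8 ± 19.3 FPKM (3.12, adjusted p = 0.00213), and Tnfrsf13c among them. Against wt proB 2 rose and 4 fell in B-ALL (median 0.01, and -0.20 after rescaling to TPM or quantile normalization). The SLAM family gene Cd244 (17.3 ± 5.29 against 3.37 ± 1.33 FPKM, 2.06, adjusted p = 0.0281) and Ms4a6b, a relative of Ms4a1 (26.9 ± 13.2 against 6.85 ± 0.208 FPKM, 1.72, adjusted p = 0.0343), were the rises. The largest falls were in Siglech, named above (-6.03, adjusted p = 0.000128), and Slamf7, a SLAM family gene (12.0 ± 1.29 against 61.3 ± 9.90 FPKM, -2.26, adjusted p = 0.0116). In dHet proB against wt proB 6 fell and 1 rose (median -0.66, -0.04 over all genes). Slamf6 was among the falls (5.69 ± 3.58 against 67.4 ± 18.5 FPKM, -3.47, adjusted p = 0.0135), and Cd84 was the rise (26.1 ± 7.50 against 12.0 ± 1.56 FPKM, 1.03, adjusted p = 0.0453). Over the 25 settings Cd52 and Siglech kept their calls in all, Slamf7 and Slamf6 in 23, Ms4a6b in 21, Cd244 in 18 and Cd84 in 14.

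Proteins through which the receptors signal inside the cell had 22 genes tested. In B-ALL against dHet proB 5 rose and 3 fell (median -0.06), beside the 25.5% of all genes that passed in either direction. The kinase gene Blk (98.9 ± 25.3 against 17.9 ± 3.71 FPKM, 2.39, adjusted p = 0.00075) and Ptpn6, which encodes SHP-1 (217 ± 60.6 against 70.7 ± 16.5 FPKM, 1.60, adjusted p = 0.00519), had the largest rises. The adaptor genes Pik3ap1 (-1.49, adjusted p = 0.0271) and Blnk (-1.47, adjusted p = 0.0112) fell the most. Against wt proB 1 rose and 4 fell in B-ALL (median -0.24, 18.2% of all genes passing), with the phospholipase gene Plcg2 the rise (121 ± 7.82 against 66.6 ± 4.32 FPKM, 0.85, adjusted p = 0.0187). Pik3ap1 (23.6 ± 16.3 against 128 ± 15.5 FPKM, -2.59, adjusted p = 0.00645) and Nfkb2, an NF-kappaB subunit downstream of CD40 (9.67 ± 3.03 against 31.3 ± 3.20 FPKM, -1.63, adjusted p = 0.00424), had the largest falls. In dHet proB against wt proB 6 fell and 0 rose (median -0.28, 8.68% of all genes passing), led by Blk (-1.96, adjusted p = 0.00255) and Map3k14, a kinase gene downstream of CD40 (-1.42, adjusted p = 0.0179). In B-ALL against dHet proB, Blk, Ptpn6 and Blnk kept their calls in all 25 settings and Pik3ap1 in 18. Against wt proB, Plcg2 did so in 21, Pik3ap1 in 23 and Nfkb2 in 24, and in dHet proB Blk in 24 and Map3k14 in 22.

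Of 9 genes for ligands and partners outside the cell, 1 passed in each comparison, while 25.5% of all genes passed in B-ALL against dHet proB, 18.2% in B-ALL against wt proB and 8.68% in dHet proB against wt proB. The count is thus near or below the background in each. Cmah, an enzyme that makes the sialic acid preferred by mouse CD22, was higher in B-ALL than in dHet proB (9.49 ± 5.46 against 1.32 ± 0.566 FPKM, 2.08, adjusted p = 0.00709) and lower in dHet proB than in wt proB (10.3 ± 1.90 FPKM, -2.31, adjusted p = 0.0104). Siglecg, which encodes a CD24-binding lectin and relative of CD22, fell in B-ALL against wt proB (45.2 ± 32.2 against 169 ± 18.0 FPKM, -2.09, adjusted p = 0.0209). Cmah kept its call in 25 and 23 of 25 settings, and Siglecg in 22. The list medians were -0.08 in B-ALL against dHet proB, -0.00496 in dHet proB against wt proB and -0.10 in B-ALL against wt proB.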

How the data were processed

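RNA was sequenced in 11 mouse libraries. Per the submitters' processing notes, the tools were STAR 2.5.3a, Cuffnorm 2.2.1, Cuffdiff, Cufflinks 2.2.1 and bcl2fastq, with build mm9. Neither annotation nor scaling mode is stated there. The authors deposited 1 table of FPKM per library, with no counts, so counting error and absolute depth are unknown. FPKM were transformed to log2(FPKM + 1), which understates changes of low genes, and libraries of a B-ALL mouse were averaged, giving 8 units. The 11110 genes that reached FPKM 1 in 2 or more units were tested. limma 3.58.1 (R 4.3.3, statmod 1.5.0) with a mean-variance trend was fitted to all 3 groups, two-sided, with Benjamini-Hochberg adjustment at 0.05 over all genes. The F test among mice used the 11 libraries. Exact permutation tests could not go below 0.1, so none is given. Whether the proB libraries are separate animals or cultures is not in the labels, and p-values measure only the spread between these samples, which may be technical. The title of dHet proB library 3 numbers it 3, and its source name 2. The fit was tested on simulated data. Of each other list, the text names in each comparison at most 2 rises and 2 falls, by size of change among calls, and the 2 genes with the highest r per member among genes reaching FPKM 10 in 2 or more units, predicted genes left out (1 gene so chosen is not reported here). The members and lists were chosen with earlier results of these data known. Alternatives covered pseudocounts, the filter, scaling, library choice, the mouse as a random effect, a replicate block, the trend, the groups fitted and each library or mouse left out. Shared words and overlapping exons came from GENCODE M21.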

Additional observations from a re-analysis of the deposited data

Results flagged for a closer look

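The B-ALL mice lay on opposite sides of a proB group for 3 of the 9 genes. Cd2 was above wt proB and above dHet proB in both libraries of mouse 713, below wt proB in mice 686 and 760, and below dHet proB in mouse 760 (F test of the mice, limma adjusted p = 1.40e-05). Cd38 was above dHet proB in mouse 713 and below it in mice 686 and 760 (adjusted p = 0.00146). Cd22 was above wt proB in mouse 713 and below it in mouse 686 (adjusted p = 0.0442), a call lost in 9 of 16 settings (adjusted p up to 0.225). The F test compares the mice with each other and not with a proB group.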

How the results depend on the processing

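The number of genes past the test rested on single libraries. Leaving out a library gave 195 to 2341 genes for B-ALL against wt proB (2017 with all), 1393 to 2904 for B-ALL against dHet proB (2832), 76 to 993 for dHet proB against wt proB (964) and 1302 to 3430 for the mice (2513). Leaving out a mouse gave 1055 (without 686) to 2460 (without 713), 1395 (without 686) to 2965 (without 713) and up to 1251 (without 713). Of the 9 genes 2 to 6, 3 to 4, 1 to 5 and 4 to 6 passed over both kinds of setting. With only the 2 groups compared in the fit, 5 members passed in dHet proB against wt proB instead of 3. Cd22 in B-ALL against wt proB was -0.41 to 0.24 with a library left out (0.24 without wt proB library 1), 0.16 without mouse 686 and 0.0313 without mouse 760, Cd2 in B-ALL against dHet proB turned to -0.35 without mouse 713, and Cd38 there to 0.0942 without mouse 760; the cause was not tested. Same-numbered libraries correlated in their deviations by -0.13 to 0.64. The highest values were those between B-ALL mice, with 0.64 for 686 and 713, 0.21 for 713 and 760 and 0.13 for 686 and 760. In groups of 2 libraries the deviations mirror each other, so libraries 1 and 2 give the same value. The main fit did not take the numbers as pairing, and a fit with them as a block follows. With the replicate block 2333, 2402 and 916 genes passed in the 3 comparisons, in the order above, with 4, 4 and 3 members. Rescaling to TPM moved the median of all genes by -0.20 in B-ALL against wt proB and by -0.15 against dHet proB, where 23.8% instead of 44.9% and 38.8% instead of 57.0% of calls were higher. Quantile normalization gave 46.5% higher in B-ALL against dHet proB and 41.8% instead of 25.1% in dHet proB against wt proB. Both scalings kept the direction of every member tested, and Cd53 in dHet proB against wt proB lost its call after quantile normalization (adjusted p = 0.0712). Low levels limit Cr2, Cd40 and Ms4a1.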
